A study of Mus musculus with 96 samples.

Results

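Erythroid miRNAs of the neighbouring miR-144 and miR-451 genes (mmu-miR-451a, mmu-miR-144-3p and mmu-miR-144-5p) and of the miR-486 genes (mmu-miR-486a-5p and mmu-miR-486b-5p) were followed through the infarcted mouse heart. Members were defined by their names and are 5 of the 1978 mature mouse miRNAs in the count tables. The 96 small RNA libraries came from hearts of male C57Bl/6J mice, separated into hematopoietic cells (HCs), fibroblasts (FBs), endothelial cells (ECs) and cardiomyocytes (CMs). Each cell type had 4 libraries of animals that were not operated on (D0, the control, without a sham group) and 4 each of D1, D3, D7, D14 and D28 after permanent ligation of a coronary artery. Per the labels each library pooled cells of 3 mice, whereas the methods describe pools of RNA samples, fewer where a sample was missing. Per the methods, the pools of a time point came from the same animals in each cell type, so comparisons between cell types share animals, and no source used here says which pools match. The labels call the replicates biological while the study's methods also call them technical, so p-values measure the spread between these libraries, which may be in part technical. HCs were bound by beads against CD45, a surface protein of leukocytes that mature red cells lack, and ECs by beads against CD144 from what was left. FBs were those cells bound by neither kind of bead that then adhered in a short plating step. CMs were spun down at low speed before the beads were used. Neither was thus picked out by a marker of its own. Input RNA and PCR cycles differed by cell type and libraries were prepared in batches by cell type. Batch and cell type can therefore not be told apart.

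The locus of miR-144 and miR-451 is switched on by the transcription factor GATA1 in red cell precursors, and its products persist in circulating red cells, which have no nucleus. MiR-451a is cut from its hairpin by Argonaute 2 and not by Dicer, and it is among the most abundant miRNAs of red cells. MiR-144 leaves both arms of its hairpin. MiR-486 lies within Ank1, the gene of an ankyrin of the red cell membrane, and is also abundant in heart and skeletal muscle, where a muscle promoter of the host gene drives it. MiR-451a and miR-144 are thus read as signs of red cells in tissue, while miR-486 has a muscle source too.

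In the RefSeq table used here (GRCm38.p6), 3 of the 5 members have an entry, and their mature sequences are shown because they carry the count of each member. The capitals mark the seed, bases 2 to 8 from the 5′ end, which pairs with targets.
miR-451a, chr11:78073186-78073207, plus strand: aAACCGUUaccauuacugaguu
miR-144-3p, chr11:78073047-78073066, plus strand: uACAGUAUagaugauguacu
miR-144-5p, chr11:78073010-78073032, plus strand: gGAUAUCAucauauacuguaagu
The 3 seeds differ. Both hairpins lie on the plus strand of chromosome 11 with 99 bases between them, so the 3 miRNAs come from neighbouring genes. MiR-486a-5p and miR-486b-5p had equal counts in 96 of 96 libraries and are reported once, as miR-486a-5p, which leaves 4 distinct members. Their counts cannot be assigned to one copy or the other.

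Counts per library ranged from 18286 to 65588543, and a CPM value below is a count scaled to the library's total of mature miRNA counts. Replicate 3 of the D0 HCs, the library with the fewest counts, held 1 count of miR-451a and 0 counts of either miR-144 arm, for which the limit of 3 counts is 164 CPM and the exact upper 95% limit 202 CPM. Its 51 counts of miR-486a-5p gave 2789 CPM with an exact 95% interval from 2077 to 3665, which covers counting error only. The study left out 1 unnamed library each of the D0 HCs, D0 FBs and D28 ECs, and all 96 libraries are kept here. Folds are log2 fold changes ± standard error from edgeR with TMM scaling, which assumes that most miRNAs do not move, and a member is called at an adjusted p under 0.05.

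The members did not share one ranking of cell types. MiR-451a was lowest in CMs and highest in FBs, while miR-486a-5p was highest in CMs. Over 24 libraries each, miR-451a had a mean of 11.6 ± 11.4 CPM (SD) in CMs, 102 ± 69.8 in HCs, 232 ± 206 in ECs and 445 ± 386 in FBs. MiR-486a-5p had another order, with CMs highest and HCs lowest, at 622 ± 555 CPM in HCs, 898 ± 633 in FBs, 1395 ± 783 in ECs and 2210 ± 547 in CMs. FBs also led for both miR-144 arms, with means of 54.9 CPM for miR-144-3p and 111 CPM for miR-144-5p. CMs were lowest for both arms, at 2.05 and 2.15 CPM. ECs and HCs lay between, at 6.70 and 15.8 CPM of miR-144-3p and 23.1 and 21 CPM of miR-144-5p. MiR-486a-5p was above miR-451a in 24 of 24 CM and EC libraries and in 23 of 24 FB and HC libraries.

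**Figure D1:**
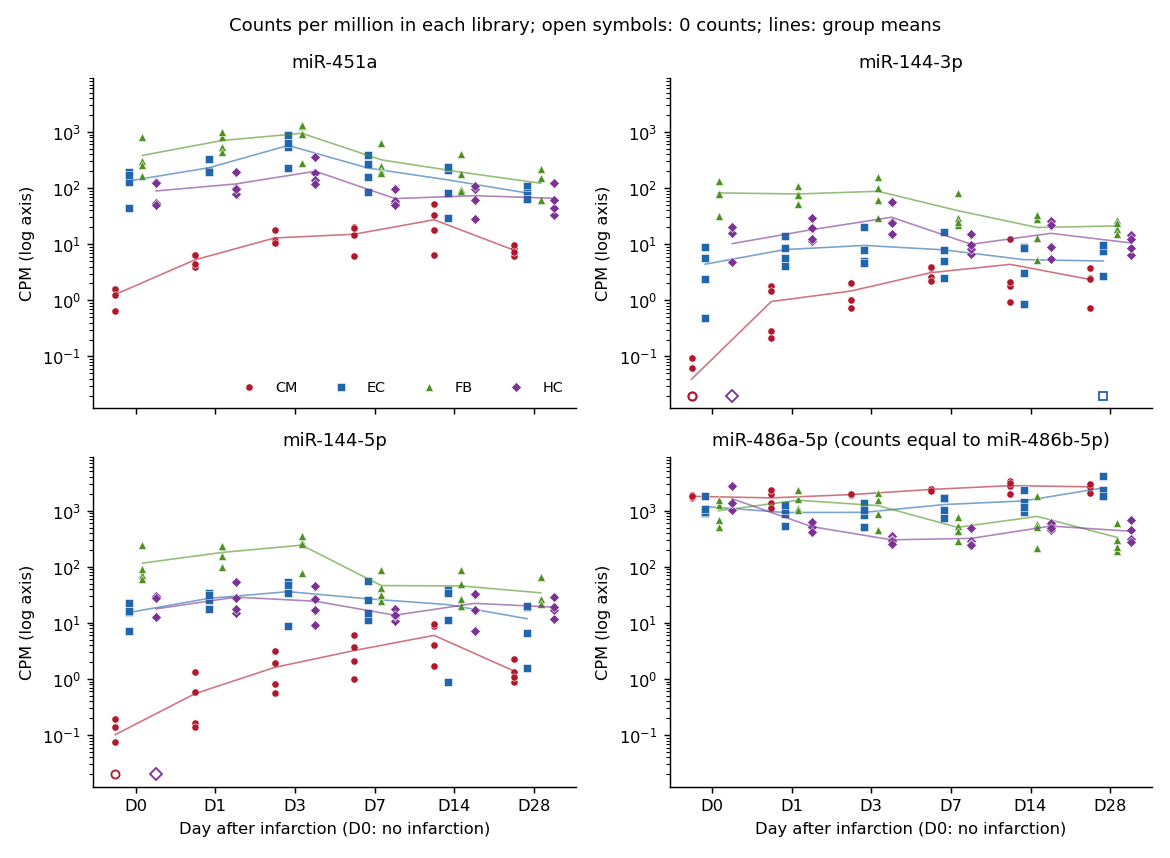
CPM (log axis) of the 4 distinct members in each of 96 libraries by day (x axis) and cell type, with lines through group means and open symbols for 0 counts. The 3 products of the miR-144 and miR-451 locus have their lowest means over all days in CMs and their highest in FBs, while miR-486a-5p lies between 195 and 4162 CPM in all 4 cell types.

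Averaged over the 6 days, 23 of 24 comparisons between pairs of cell types were called by edgeR across all 96 libraries, where of 712 miRNAs 69.4% were called between CMs and ECs, 75.7% between CMs and FBs, 77.7% between CMs and HCs, 71.8% between ECs and FBs, 77.7% between ECs and HCs and 85.7% between FBs and HCs, so that a call is common here. The one that was not called was miR-144-3p between ECs and HCs (-0.41 ± 0.25, adjusted p = 0.119), which library size scaling did call (-1.21). Conversely miR-144-5p between the same cell types was called (0.86 ± 0.23) but not under library size scaling (0.06, adjusted p = 0.864). For miR-451a, the log2 difference was -0.74 ± 0.20 for ECs minus FBs and -3.87 ± 0.23 for CMs minus FBs, and ECs exceeded HCs by 1.78 ± 0.21. For miR-486a-5p, CMs exceeded ECs by 2.20 ± 0.16 and HCs by 4.34 ± 0.18, and by 0.73 and 2.09 with library size scaling, which also gave -5.45 for miR-451a in CMs minus FBs. All of these were called under both scalings.

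In the uninjured hearts of D0, the order of miR-451a was already present. The CM libraries held 1.62, 0.637, 1.62 and 1.22 CPM of miR-451a, and the EC libraries 128, 196, 169 and 44.2 CPM. FBs held 308, 256, 803 and 162 CPM, and HCs 127, 124, 54.7 and 50.1 CPM. The CM libraries lay below all others, whereas EC, FB and HC libraries overlapped. Of the 24 comparisons at D0, edgeR called 18, where, for the same pairs in the same order, 54.5, 60.7, 57.3, 53.4, 43.7 and 55.1% of 712 miRNAs were called. MiR-451a was higher in FBs than in ECs (ECs minus FBs -1.23 ± 0.50 log2, adjusted p = 0.0324) and than in HCs (FBs minus HCs 2.33 ± 0.55), while ECs and HCs were not separated (1.09 ± 0.53, adjusted p = 0.0879). FB libraries at D0 also held more miR-144-3p than EC libraries (ECs minus FBs -4.02 ± 0.62 log2). MiR-486a-5p at D0 did not separate ECs, FBs and HCs (adjusted p from 0.278 to 0.866). CMs were 3.29 to 3.80 log2 higher than each of them under TMM scaling but only 0.60 (adjusted p = 0.147), 0.85 and 0.23 (adjusted p = 0.586) higher than ECs, FBs and HCs by library size, so that the excess in CMs at D0 depends on the scaling.

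The cell preparations were checked against markers of each type. The summed CPM of miR-1a-3p, miR-133a-3p, miR-208a-3p and miR-499-5p, which mark cardiomyocytes, had a median of 526119 over CM libraries, 75254 in ECs, 51081 in HCs and 2341 in FBs. None of the 4 was at 0 in any group. The endothelial miR-126a arms summed to a median of 208050 CPM in ECs, 17205 in CMs, 27868 in FBs and 27437 in HCs. The leukocyte list (miR-223-3p, both miR-142a arms and miR-150-5p) was highest in HCs, at a median of 12821 CPM against 92.2 in CMs, 182 in FBs and 2362 in ECs. In ECs nearly all of it was miR-150-5p, with a mean of 2544 CPM. MiR-142a-3p had means of 12.2 CPM in ECs and 41.5 in FBs, and miR-142a-5p 3.03 and 13.4. MiR-223-3p went the other way, with 2.98 CPM in ECs and 1.11 in FBs. The 3 fibroblast markers (miR-199a-3p, miR-199a-5p and miR-214-3p) had medians of 62191 CPM in FBs, 918 in CMs, 4320 in ECs and 4450 in HCs. Each list was highest in the cell type of its label, with cardiomyocyte miRNAs present in ECs and HCs. FBs, which had the most miR-451a and miR-144, held the least of the cardiomyocyte miRNAs. In bulk preparations, fewer cells of a type and less RNA per cell cannot be told apart.

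In CMs the locus of miR-144 and miR-451 went from almost nothing to a low level after infarction. MiR-451a rose from the D0 values above to 12, 11.6, 17.6 and 10.5 CPM at D3 and to 18.3, 51.5, 33.1 and 6.36 CPM at D14, and was at 6.12, 8.39, 7.27 and 9.70 CPM at D28. In CPM, no library of D1 to D28 was as low as the highest of D0. With TMM scaling the libraries of D7 and of D14 overlapped those of D0, and those of D1, D3 and D28 lay above. How many of all miRNAs lay apart in this way is not given here. By library size the median of 484 miRNAs in CMs also rose, by 1.42, 2.37, 2.67, 2.99 and 1.99 log2 from D1 to D28. The change of miR-451a by library size was 2.04, 3.34, 3.56, 4.41 and 2.62 at these days. Pooled over 4 libraries, 68 counts at D0 became 911 of 58954056 at D7, a CPM ratio of 12.2 (exact 95% interval 9.54 to 15.9, counting error only), and the ratio was 15.6 at D14 and 6.13 at D28.

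MiR-144-3p had 2 counts in all of the 53756544 counts of CMs at D0, with 2 libraries at 0 counts. At D7 the 4 CM libraries held 2.62, 3.72, 3.85 and 2.24 CPM of miR-144-3p, a pooled ratio of 82.5 with an interval from 22.5 to 687 that the 2 counts of D0 leave wide. MiR-144-5p had 5 counts at D0 and a ratio of 34.8 at D7 (14.7 to 109) and 46.0 at D14. The 3 products of the locus thus moved up together in CMs, though their levels stayed below those of the other cell types on average.

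By edgeR, 17 of 20 combinations of member and day differed from D0 in CMs, 12 up and 5 down, where 25, 55.2, 69, 67.1 and 54.3% of 484 miRNAs were called from D1 to D28, in either direction. Rises alone covered 13.6 to 38.8% of miRNAs and falls 11.4 to 30.2%. The fitted change of miR-451a was 1.41 ± 0.44 at D3 (adjusted p = 0.0093), 1.23 ± 0.44 at D7 and 1.81 ± 0.45 at D14, and 0.85 and 0.90 at D1 and D28, which were not called. By library size miR-451a was called at these days too (2.04 and 2.62), as was miR-144-5p at D1 (2.38). The D7 call was lost in 4 of the 8 fits that each left out a library, those without D0 replicate 2 or 4 or D7 replicate 3 or 4 (adjusted p up to 0.121). MiR-144-3p was called at all 5 days (3.12 to 4.02) and miR-144-5p from D3 to D28 (2.05 to 3.28). These fitted folds rest on the few counts of D0. The miR-144-3p call at D1 was lost without any of 5 libraries (D0 replicate 2, 3 or 4, D1 replicate 3 or 4) and at D3 without D0 replicate 4. The miR-144-5p calls at D3 and D28 were each lost without 6 of the 8 libraries, and all 4 libraries of D0 are among those of D3.

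MiR-486a-5p had the opposite fitted direction in CMs, and that direction depended on the scaling. Its CPM was 1684, 1743, 1928 and 1841 at D0, 1889, 1917, 1946 and 1976 at D3 and 3380, 2734, 1978 and 3071 at D14. On the CPM scale all 4 libraries of D14 lay above those of D0. Under TMM scaling edgeR gave falls of -1.32 ± 0.22, -1.82 ± 0.22, -1.87 ± 0.22, -1.97 ± 0.22 and -1.18 ± 0.21 from D1 to D28, all called, whereas with library size alone the changes were -0.09, 0.10, 0.41, 0.63 and 0.56 and the last 2 were called as rises. By library size the median miRNA of CMs changed by 1.42, 2.37, 2.67, 2.99 and 1.99 log2 from D1 to D28, and under TMM scaling by 0.20 to 0.44. TMM factors were 0.289 to 0.357 in CM libraries of D0 and 0.491 to 2.04 in those of later days. MiR-1a-3p alone held a mean of 657447 CPM in CMs at D0 and 353118 CPM at D14.

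**Figure D2:**
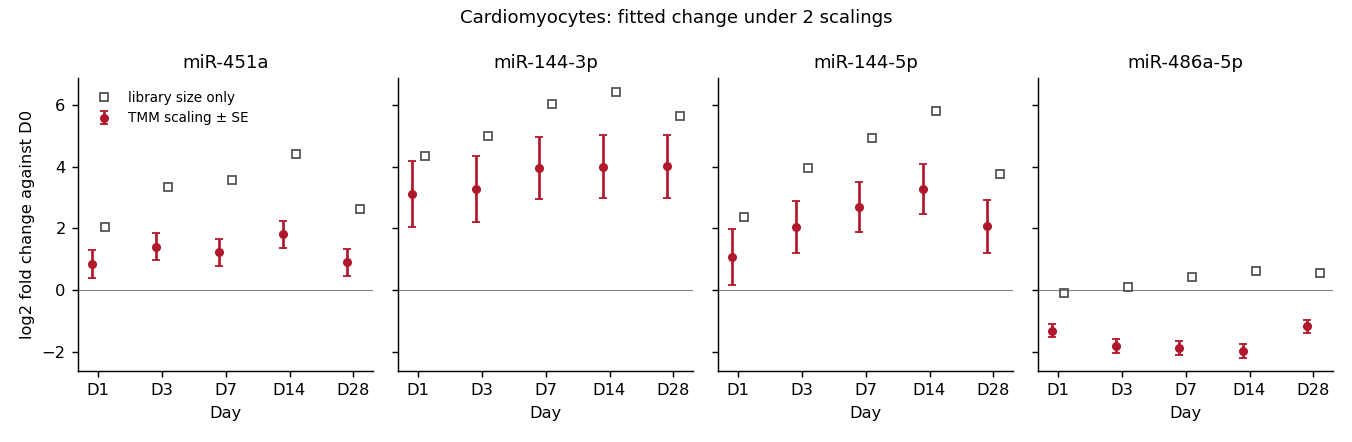
Fitted log2 fold change against D0 (y axis) of the 4 distinct members in CMs by day (x axis), with TMM scaling ± standard error (filled circles) and by library size only (open squares). The products of the miR-144 and miR-451 locus are above 0 under both scalings, while miR-486a-5p is at -1.18 to -1.97 with TMM and at -0.09 to 0.63 by library size.

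Leukocyte and fibroblast miRNAs also rose in CMs. The leukocyte list had a median of 16.8 CPM at D0 and 219 at D7, with 3 of 4 markers called up at each day, and all 4 markers were detected in the group at D0. The 3 fibroblast markers summed to a median of 38.1 CPM at D0 and 2012 at D14, and 3 of 3 rose from D3 to D28. Of the 2 endothelial miR-126a arms, miR-126a-5p rose by 1.61 ± 0.44 at D3 and the other was not called. At D7 and at D14, 1 arm was called up and 1 down. The part of other cells in the rise of miR-451a and miR-144 in CMs was not tested.

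In ECs, miR-451a had a peak at D3. The 4 libraries held 889, 551, 228 and 635 CPM at D3, all above the 44.2 to 196 CPM of D0, and 108, 81.4, 73.9 and 62.8 CPM at D28, within the range of D0. EdgeR gave a rise of 2.09 ± 0.50 at D3 (adjusted p = 0.0035), which held in each of the 8 fits without 1 library (adjusted p at most 0.0189). MiR-144-3p at D3 (1.18 ± 0.64, adjusted p = 0.215) and miR-144-5p (1.22 ± 0.58, adjusted p = 0.15) had the same sign and were not called. In a fit of only D0 and D3, miR-144-5p was called (1.19, adjusted p = 0.0181 by edgeR). At D3 the EC libraries held 20.6, 4.92, 4.71 and 7.84 CPM of miR-144-3p, which overlaps the 0.475 to 8.99 CPM of D0.

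MiR-486a-5p in ECs was called at D28 only, as a rise. Its values were 921, 1811, 945 and 1054 CPM at D0 and 1878, 4162, 2355 and 1816 CPM at D28. All 4 libraries of D28 exceeded those of D0 in CPM, the lowest of D28 by little. EdgeR gave a rise of 1.21 ± 0.35 (adjusted p = 0.0053), and without replicate 2 of D28 it was 0.70 with an adjusted p of 0.0881, so that library decides the call. In all, 2 of 20 combinations of member and day were called in ECs, where 0, 17.6, 22.6, 14.5 and 47% of 421 miRNAs were called from D1 to D28.

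Cardiomyocyte miRNAs fell in ECs at D28, where miR-486a-5p rose. Their summed CPM had a median of 103948 at D0 and 47616 at D28 and 4 of 4 were called down at D28. Per 1000 counts of these 4 miRNAs, miR-486a-5p had a median of 11.2 counts at D0 and 54.9 at D28. Other markers moved at D28 as well. The 3 fibroblast markers had a summed median of 2385 CPM at D0, 9639 at D7 and 5237 at D28, when 2 of 3 were called up. The endothelial miR-126a arms went from a median of 200614 CPM at D0 to 136462 at D28, with 1 of 2 called down. MiR-122-5p, the most abundant miRNA of liver cells, had a median of 152 CPM in ECs at D0 and 1325 at D28, a change of 3.20 ± 0.41, with changes of 1.40 ± 0.38 at D7 and 1.55 ± 0.38 at D14. Replicates 1 and 3 of D28 were the shallowest EC libraries, at 525651 and 636084 counts. The part of other cells or of depth in the rise of miR-486a-5p was not tested.

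In FBs the arms of miR-144 fell in the later weeks, the 3p arm at D7, D14 and D28 and the 5p arm at D7 and D14. The miR-144-3p values were 83.0, 32.0, 135 and 78.5 CPM at D0, 28.2, 5.28, 33.1 and 13.0 CPM at D14 and 18.5, 27.1, 23.8 and 15.2 CPM at D28. In CPM, the libraries of D28 lay below those of D0 and 1 library of D14 overlapped them. The changes of miR-144-3p were -1.31 ± 0.48 at D7, -2.11 ± 0.49 at D14 (adjusted p = 0.0028) and -1.84 ± 0.49 at D28 (adjusted p = 0.022) by edgeR. MiR-144-5p fell by 1.60 ± 0.52 on the log2 scale at D7 and by 1.42 ± 0.52 at D14, and at D28 its change of -1.65 ± 0.52 missed the threshold (adjusted p = 0.0553).

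MiR-451a in FBs was called at no day. It was at 903, 1264, 274 and 1348 CPM at D3 (0.95 ± 0.54, adjusted p = 0.167) and at 62.4, 215, 60.8 and 150 CPM at D28 (-1.56 ± 0.55, adjusted p = 0.092). MiR-486a-5p in FBs was at 685, 1238, 1547 and 520 CPM at D0 and 195, 614, 227 and 303 CPM at D28 (-1.46 ± 0.52, adjusted p = 0.092), and its change of -1.24 ± 0.52 at D7 had an adjusted p of 0.0509. In total 5 of 20 combinations were called in FBs, where 7.99, 43, 45.6, 24.7 and 6.75% of 563 miRNAs were called from D1 to D28. The miR-144-3p fall at D7 was lost by DESeq2 (adjusted p = 0.0535) and by library size (adjusted p = 0.103). That of miR-144-5p at D14 was lost by library size, with a replicate block and in a fit of only D0 and D14 (adjusted p from 0.0598 to 0.113). Of the 5 calls, only the fall of miR-144-3p at D14 held in all 8 fits without 1 library. The D7 and D28 falls of miR-144-3p were each lost in 4 fits, the D14 fall of miR-144-5p in 5 and its D7 fall without replicate 3 of D0, which held the most miR-451a of the 4. Leaving out that D0 library made miR-451a and miR-144-5p rises at D3 pass the test (1.66, adjusted p = 0.0195, and 1.39, adjusted p = 0.0361). The leukocyte list had a median of 230 CPM in FBs at D0, 124 at D7 and 98.6 at D28, with 2 of 4 markers called down at D7 and D14 and 1 at D28, and its part in these falls was not tested.

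In HCs the members split. MiR-486a-5p was lower at every day after infarction, while miR-451a was called at D7 only. MiR-486a-5p was at 1016, 1347, 2789 and 1352 CPM at D0 and fell to 514, 518, 622 and 422 CPM at D1 and 357, 306, 292 and 254 CPM at D3. It was at 458, 675, 316 and 272 CPM at D28. No library after D0 reached the lowest of D0, and how many of all miRNAs did so is not given here. The edgeR changes were -1.85 ± 0.26, -2.72 ± 0.26, -2.53 ± 0.26, -1.73 ± 0.26 and -2.01 ± 0.26 from D1 to D28. All were called, also by library size (-1.49 to -2.30), at days when 24 to 59% of 608 miRNAs were called. Without the shallow replicate 3 of D0 the changes were -1.70, -2.57, -2.38, -1.58 and -1.86 and all were called.

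Over the same days miR-451a in HCs was at 187, 141, 118 and 353 CPM at D3 (0.47 ± 0.42, adjusted p = 0.355) and 53.5, 58.7, 97.7 and 50.3 CPM at D7, where edgeR called a fall of 1.00 ± 0.42 on the log2 scale (adjusted p = 0.0495). That call was lost without any of 5 libraries (D0 replicate 1 or 2, D7 replicate 1, 2 or 4) and by library size (-0.60, adjusted p = 0.245). MiR-144-5p fell by 1.18 ± 0.45 at D7 (adjusted p = 0.034), a call lost without D0 replicate 1 or 2 or D7 replicate 1, and by library size (-0.77). MiR-144-3p in HCs was between -0.85 and 0.57 at the 5 days and was not called (adjusted p from 0.138 to 0.975). In HCs 7 of 20 combinations were called, 5 of them miR-486a-5p, where 54.3, 59, 49.5, 28.1 and 24% of 608 miRNAs were called from D1 to D28.

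Cardiomyocyte miRNAs fell in HCs together with miR-486a-5p. Their summed CPM had a median of 110332 at D0 and, from D1 to D28, of 86034, 46548, 31060, 53204 and 33961. Of the 4 markers, 3 were called down at D1 and 4 at each later day, and miR-1a-3p changed by -2.01 ± 0.21 at D7. The endothelial miR-126a-3p also fell, by 2.43 ± 0.25 on the log2 scale at D3. Leukocyte markers went the other way, from a median of 7633 CPM at D0 to 21529 at D3, when 3 of the 4 rose and 1 fell. The ratio of miR-486a-5p to the cardiomyocyte miRNAs was not constant. HCs held a median of 14.4 counts of miR-486a-5p per 1000 counts of the 4 markers at D0, 5.46 at D1, 7.11 at D3 and 11.4 at D28, against 2.72 in CMs at D0. The share of cardiomyocyte or other RNA in the fall of miR-486a-5p was not tested.

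**Figure D3:**
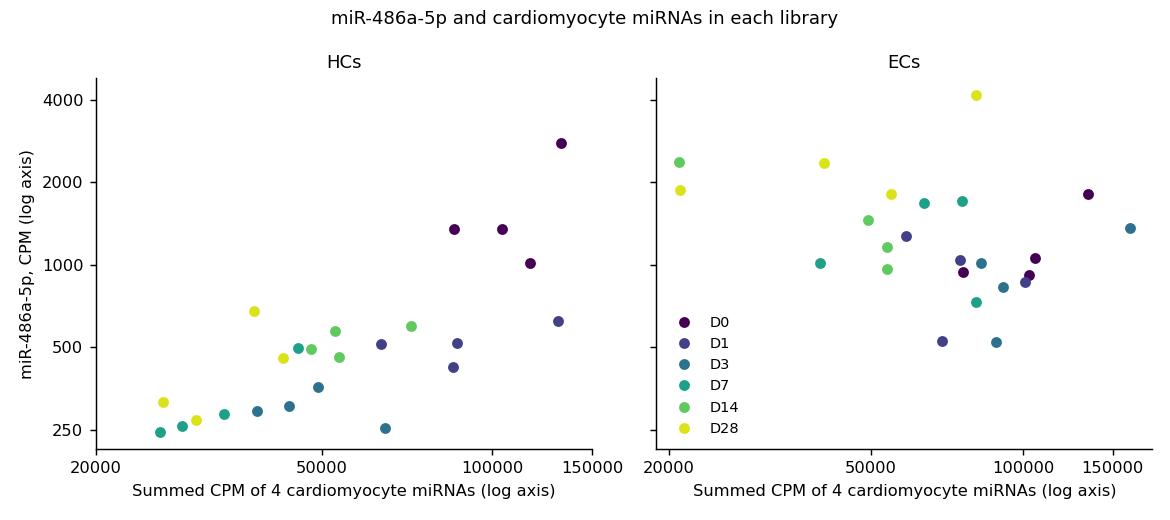
MiR-486a-5p (y axis, CPM, log axis) against the summed CPM of 4 cardiomyocyte miRNAs (x axis, log axis) in each HC and EC library, coloured by day. In HCs the 4 libraries of D0 lie highest in miR-486a-5p, from 1016 to 2789 CPM, and in ECs those of D28 are at 1816 to 4162 CPM. Cardiomyocyte miRNAs in ECs have a lower median at D28 than at D0, and their ranges overlap (up to 80702 CPM at D28, from 75957 at D0).

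Tested over all 6 days at once within a cell type, edgeR called 12 of 16 combinations of member and cell type, where 73.8, 58.2, 68.2 and 73.5% of miRNAs were called in CMs, ECs, FBs and HCs. Both arms of miR-144 were not called in ECs (adjusted p = 0.6 and 0.291) or in HCs (0.0595 and 0.208). MiR-451a and miR-486a-5p were called in all 4 cell types. The change against D0 in one cell type was also set against the mean change in the other 3, and 26 of 80 such differences were called, 8 for miR-144-3p, 7 for miR-144-5p, 3 for miR-451a and 8 for miR-486a-5p, where from D1 to D28 the share of 712 miRNAs called was 20.5, 39.9, 44.8, 43.8 and 39.6% for CMs, 2.25, 16.2, 16.4, 16.6 and 39.9% for ECs, 2.81, 7.87, 30.9, 30.5 and 10.1% for FBs and 26.8, 33.7, 19.5, 5.48 and 1.97% for HCs. The 3 of miR-451a were in CMs, at D7 (1.95), D14 (2.74) and D28 (2.19). By library size those of miR-451a in CMs at D3, in FBs from D7 to D28 and in HCs at D7 were called as well. Those of miR-486a-5p were 1 for CMs, 2 each for ECs and FBs and 3 for HCs. At D3 the change of miR-486a-5p in HCs minus that in the other cell types was -2.13 log2, and in ECs at D28 the difference was 2.57.

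A ratio within a library needs no scaling between libraries, so miR-486a-5p was set against miR-451a directly, as counts with 0.5 added to each. The ratio of miR-486a-5p to miR-451a in CMs was 1011, 2592, 1168 and 1458 at D0, and its medians from D1 to D28 were 327, 161, 141, 122 and 342. Every CM library after infarction lay below every library of D0. In HCs the median was 18.9 at D0 and, from D1 to D28, 4.77, 2.04, 4.97, 6.74 and 6.27. The highest HC value of D0, 34.3, rests on the 1 count of miR-451a in replicate 3. In ECs the ratio fell from a median of 8.23 at D0 to 1.57 at D3 and stood at 30.2 at D28, and in FBs it stayed between medians of 1.39 and 3.71.

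The libraries of a day lay wholly below those of D0 in 5 of 5 days in CMs, 1 in ECs (D3), 1 in FBs (D3) and 3 in HCs (D1, D3 and D7). Ratios of any miRNA to miR-451a did so for 25.7 to 43.5% of 483 miRNAs in CMs, 45.7% of 420 in ECs at D3, 2.14% of 562 in FBs at D3 and 6.26, 22.2 and 4.12% of 607 in HCs. Many miRNAs thus share the drop in CMs, and at D3 in ECs and HCs. In each of these 10 of 20 comparisons the exact two-sided permutation test gave p = 0.0286, the smallest that 70 arrangements allow, and 0.0571 after adjustment over 20, so that 0 passed. The limma test across all miRNAs called 7 of the 20 differences of this ratio, all 5 in CMs (-2.11 to -3.49), D3 in ECs (-2.51, adjusted p = 0.0057) and D3 in HCs (-3.35, adjusted p = 0.00028). There limma called 21.9 to 49.9% of ratios in CMs, 70.5% in ECs and 30.5% in HCs. The D1 and D7 differences in HCs had adjusted p of 0.0663 and 0.0542.

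**Figure D4:**
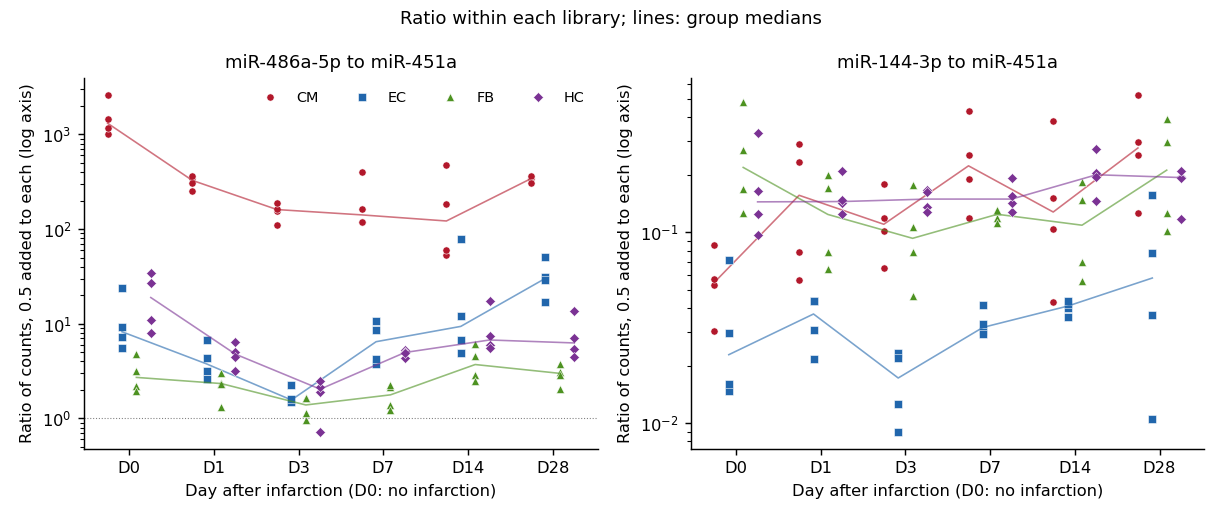
Ratio of counts (y axis, log axis, 0.5 added to each count) of miR-486a-5p to miR-451a and of miR-144-3p to miR-451a in each library by day (x axis), with lines through group medians. At D3 the medians of the first ratio are 161 (CMs), 1.57 (ECs), 1.39 (FBs) and 2.04 (HCs), and the second ratio stays between 0.00897 and 0.523 in all libraries.

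The products of the neighbouring hairpins were compared in the same way. MiR-144-3p had a median of 0.144 counts per count of miR-451a in HCs at D0 and 0.145, 0.149, 0.149, 0.2 and 0.194 from D1 to D28. In FBs the medians ran from 0.0929 to 0.219, and in ECs from 0.0172 to 0.0575. At D0 the EC libraries (0.0146 to 0.0718) lay below all FB (0.126 to 0.483) and HC libraries (0.0971 to 0.333), a difference of -3.11 ± 0.68 and -2.59 ± 0.65 on the log2 scale (exact p = 0.0286 for each, 0.0571 after adjustment over 18, limma adjusted p = 1.1e-05 and 0.00031). Ratios to miR-451a differed by limma in 47.3% and 38.3% of 711 miRNAs in these comparisons. In CMs the ratio rose from a median of 0.0546 at D0 to 0.223 at D7 and 0.277 at D28, where limma called both days, but with 5 in place of 0.5 added the differences were -0.11 and 0.24, since the D0 libraries held 0 or 1 count.

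The ratio of the miR-144 arms was also examined. At D0 its libraries overlapped between all 6 pairs of cell types (exact permutation test, adjusted p from 0.14 to 0.971), while limma called ECs above CMs, FBs and HCs (adjusted p = 0.0238, 0.00386 and 0.0454), where 69.3, 87.3 and 25.7% of ratios to miR-144-3p were called. MiR-144-5p was above miR-144-3p in 23 of 24 EC and FB libraries, 20 of 24 HC libraries and 10 of 24 CM libraries. Medians of the ratio of miR-144-5p to miR-144-3p ran from 2.3 to 5.22 over the days in ECs, 1.19 to 3.09 in FBs and 0.751 to 1.87 in HCs. Of its 20 changes against D0, the exact permutation test gave 0 with an unadjusted p under 0.05, and limma called 0, with 1 at an unadjusted p under 0.05.

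Across libraries of 1 cell type, with the mean of each day removed, the 3 products of the miR-144 and miR-451 locus correlated in ECs, FBs and HCs, and miR-486a-5p with miR-451a in FBs. MiR-451a and miR-144-5p had Pearson r = 0.91 and Spearman rho = 0.92 over the 24 HC libraries, 0.85 and 0.83 in ECs and 0.79 and 0.66 in FBs. The correlations with miR-144-3p were r = 0.82 and rho = 0.80 in HCs, 0.75 and 0.75 in ECs and 0.59 and 0.54 in FBs. All 6 passed a permutation test within days after adjustment over 12 correlations (adjusted p from 6e-05 to 0.0262 for r and from 6e-05 to 0.0373 for rho). Without the 2 libraries farthest from the median, r was 0.90, 0.78 and 0.70 for miR-144-5p and 0.81, 0.64 and 0.49 for miR-144-3p in HCs, ECs and FBs.

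MiR-486a-5p correlated with miR-451a in FBs (r = 0.84, rho = 0.81, adjusted p = 6e-05 and 0.0003, and r = 0.80 without the 2 farthest libraries). Its r with miR-451a was 0.17 in ECs, 0.18 in HCs and -0.24 in CMs (adjusted p = 0.476 for each by permutation), with rho of 0.22, 0.077 and -0.13. In CMs the r of miR-451a was 0.35 with each miR-144 arm, which did not pass (adjusted p = 0.476 and 0.321), whereas by library size r was 0.56 and 0.54 and passed (adjusted p = 0.0262 and 0.0226). Differences between these correlations were not tested. The points of a cell type share their scaling.

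**Figure D5:**
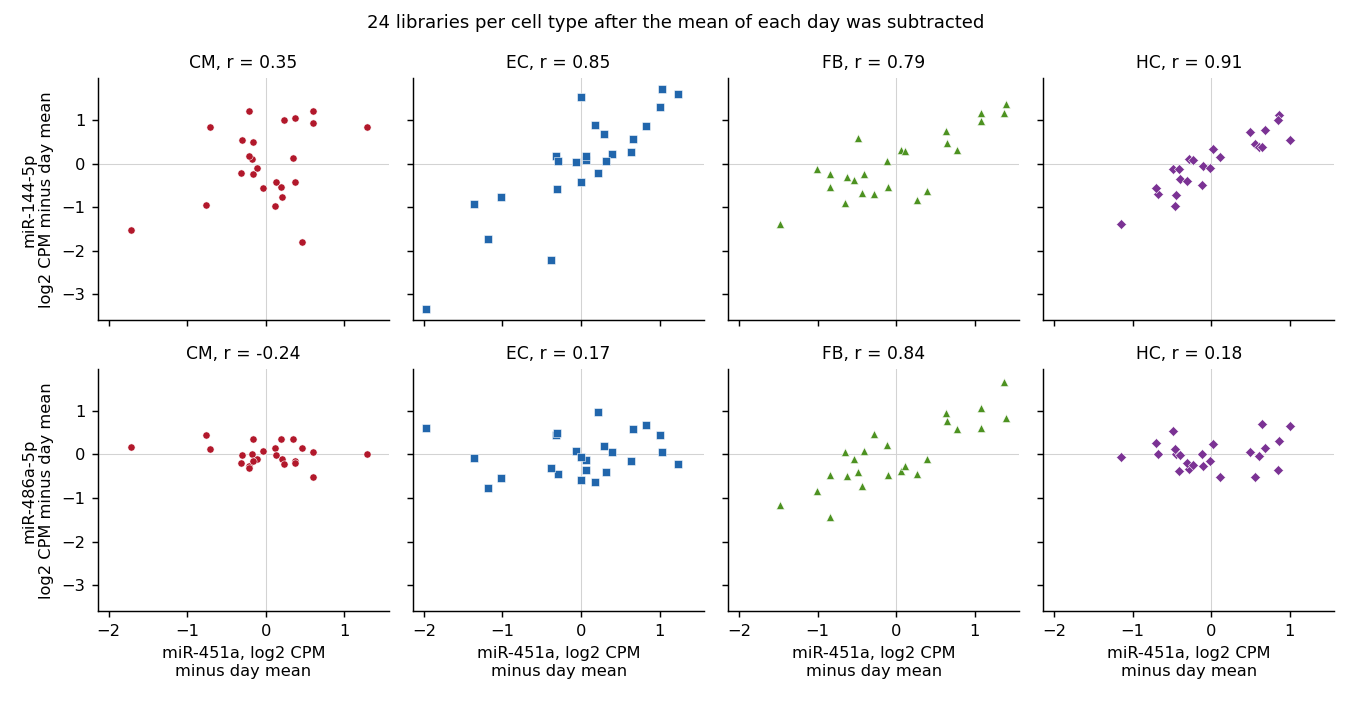
Each point is a library, with log2 CPM minus the mean of its day for miR-451a (x axis) against miR-144-5p (upper row) and miR-486a-5p (lower row) by cell type. MiR-144-5p follows miR-451a in ECs, FBs and HCs (r = 0.85, 0.79 and 0.91) and miR-486a-5p does so in FBs (r = 0.84), with r of -0.24 to 0.18 elsewhere.

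Other mature miRNAs of the same loci were miR-486a-3p, miR-486b-3p and miR-451b. MiR-451b had 0 counts in 96 libraries. The 3′ arms of miR-486, which unlike the 5′ arms had their own counts, were called in the same groups as miR-486a-5p. In HCs miR-486a-3p changed by -1.97 ± 0.28 at D1 and -2.68 ± 0.28 at D3, and miR-486b-3p by -2.01 ± 0.28 and -2.72 ± 0.28. In ECs at D28 they rose by 1.87 ± 0.40 and 2.02 ± 0.42. In CMs they fell at all 5 days under TMM scaling (-1.71 to -2.87), of which the falls at D1 and D3 were also called by library size. The 3′ reads are of the same hairpin and libraries, so they do not add independent samples. The ratio of miR-486a-5p to miR-486a-3p had a median of 5.89 at D0 and 12.4 at D3 in CMs, and 6.50 at D0 and 3.79 at D28 in ECs, and was not tested.

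A list of 9 other miRNAs known from red cells or their precursors (miR-16-5p, miR-92a-3p, miR-25-3p, miR-182-5p, miR-183-5p, miR-96-5p, miR-363-3p, miR-185-5p and miR-22-3p) was also examined, whose members other cells make too. They did not move as one. In CMs, of 8 tested, between 1 and 3 were called up and 1 and 3 down per day, with a list median of -0.20 to 0.26 beside 0.20 to 0.44 for all miRNAs. Among all 484 miRNAs, 13.6 to 38.8% were called up and 11.4 to 30.2% down per day. By library size 4 to 8 of the 8 were called up in CMs, where the median of all 484 miRNAs also rose by 1.42 to 2.99 log2. The share of all miRNAs called up by library size is not given here, so this count says nothing particular to the list. MiR-16-5p rose in CMs by 1.72 ± 0.32 at D14 under TMM scaling. Its mean in CPM, which has no TMM scaling and so gives a larger rise, went from 59.6 to 1184. In ECs at D3, when miR-451a was highest, 2 of 7 were called up (miR-182-5p by 2.53 ± 0.38 and miR-183-5p by 3.14 ± 0.56), with a list median of 0.12 beside 0.11 for all. Among all 421 miRNAs, 15.4% were called up there.

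In ECs at D28, when miR-486a-5p was up, miR-16-5p fell by 1.40 ± 0.32 on the log2 scale. In FBs, miR-182-5p, miR-183-5p and miR-96-5p, which come from one cluster, rose at D7 by 4.77 ± 0.45, 5.67 ± 0.57 and 4.40 ± 0.55, the day at which miR-144 fell. Of the 8 of the list tested there, 3 were called up and 4 down. Among all 563 miRNAs, 24.5% were called up and 21.1% down. In HCs, 4 of 9 were called up at D7, among them miR-363-3p by 2.69 ± 0.61, and 1 was called down. Among all 608 miRNAs, 29.9% were called up and 19.6% down at that day.

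The miRNAs with group means most like those of miR-451a were miR-574-3p (r = 0.86 over 24 group means of log2 CPM), miR-214-3p (0.79), miR-195a-5p (0.78) and the identical counts of miR-199a-3p and miR-199b-3p (0.75), several of which are high in FBs. The locus partners had r of 0.93 (miR-144-5p) and 0.77 (miR-144-3p), and miR-486a-5p -0.43. For miR-486a-5p the closest were miR-30c-2-3p (0.91), miR-30a-3p (0.90), miR-30c-5p (0.89), miR-30e-3p (0.89) and miR-145a-3p (0.85). Over the 24 HC libraries its closest were miR-378a-3p (0.96), miR-378c (0.96) and miR-378d (0.95), which share much of their sequence and are abundant in muscle, and the 3 kept r of 0.95 to 0.96 without the shallow library of D0. The closest to miR-451a in HCs apart from the members were miR-30b-5p (0.50), miR-499-5p (0.48) and miR-362-5p (0.48), and without the shallow library miR-503-5p came first (0.55). The r of miR-451a in HCs was 0.87 with miR-144-3p and 0.74 with miR-144-5p. These are descriptions over points that share libraries and scaling.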

How the data were processed

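Small RNA libraries (NEBNext kit) of 96 cell preparations were analysed from the deposited read counts per mature miRNA, which are raw counts and not normalised. Per the study's methods, the authors trimmed adapters with Trim Galore, removed reads under 18 nt and counted reads with nf-core/smrnaseq on miRBase v21. The submitters' processing notes also name SAMtools, Bowtie2 and the mm10 build. Reads that match 2 identical mature miRNAs give both the same counts. A share of 25.6 to 83.0% of the reads listed matched no miRNA and stayed out of library sizes. Counts cannot be corrected for PCR copies or for ligation, which differs by sequence, so a ratio of 2 miRNAs is one of reads.

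Counts were filtered with filterByExpr and tested with edgeR 4.0.16 (TMM, quasi-likelihood, Benjamini-Hochberg over all miRNAs tested) in R 4.3.3, one fit per cell type and one over 96 libraries for cell types. Log2 ratios within libraries were compared by exact permutation and, as an alternative, limma 3.58.1. Correlations used 100000 permutations within days. DESeq2 1.42.0, library size scaling, no filter, a replicate block and fits without single libraries were alternatives. The edgeR fits were also run on simulated counts, in which 200 miRNAs of each cell type were changed at D3. These counts used a mean profile common to all days. They do not hold the shift of TMM factors in CMs and cannot test the CM results that depend on scaling. Members and lists were chosen with earlier results of these data known. Every member was named, members of lists only where an adjusted p under 0.05 came with a log2 change of 1 or more, and similar miRNAs by the highest r among miRNAs averaging 100 CPM or more in the libraries compared. Sequences are from RefSeq (GRCm38.p6).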

Additional observations from a re-analysis of the deposited data

Results flagged for a closer look

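In groups of 4 libraries, a library was marked where its gap to the nearest other was over the share of the group's range that Dixon's 95% value allows, which chance gives in about 1 in 20 groups. This held for 2 of 96 groups of member and cell preparation. MiR-451a was highest in replicate 3 of ECs at D1, at 330 CPM against 191 to 201 CPM in the others. MiR-144-5p was lowest on the log2 scale in replicate 4 of HCs at D0, at 12.7 CPM, where replicate 3 has 0 counts in the shallow library.

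The change against D0 in a cell type differed from the mean change in the other 3 by edgeR (adjusted p under 0.05) in 26 of 80 cases, given here as the difference of log2 fold changes. In CMs it was 3.37 (D3), 4.91 (D7), 4.94 (D14) and 4.95 (D28) for miR-144-3p, and 3.86 (D7), 4.05 (D14) and 3.16 (D28) for miR-144-5p, both of which rest on few counts at D0. For miR-451a in CMs it was 1.95 (D7), 2.74 (D14) and 2.19 (D28). For miR-486a-5p in CMs it was -1.03 (D14, adjusted p = 0.0499), but 1.15 by library size.

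In ECs the difference was 1.46 (D7) and 2.57 (D28) for miR-486a-5p. In FBs it was 1.76 (D1) and 1.62 (D3) for miR-486a-5p, -2.55 (D7), -3.59 (D14) and -3.30 (D28) for miR-144-3p, and -2.24 (D7), -2.54 (D14) and -2.18 (D28) for miR-144-5p. In HCs it was -1.53 (D1), -2.13 (D3) and -1.49 (D7) for miR-486a-5p, -2.08 (D3) for miR-144-5p and -2.08 (D7) for miR-144-3p. By library size the differences of miR-486a-5p in ECs at D7 and in FBs at D1 and D3 were not called (adjusted p = 0.0742, 0.0716 and 0.0511). In FBs the changes of miR-486a-5p themselves were 0.41 and -0.05 at D1 and D3 and were not called. The mean of the other 3 cell types holds the CM changes of miR-144 and, for miR-486a-5p, the CM fall that library size reverses, so the differences of the other cell types contain them.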

How the results depend on the processing

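Without a filter on low counts, the calls against D0 of 20 were 19 (CMs), 4 (ECs), 12 (FBs) and 13 (HCs). The share of all miRNAs called in that setting is not given here, so these counts have no background. The fold could stay alike while its p fell. For miR-451a in FBs at D28 edgeR gave -1.48 (adjusted p = 5.0e-06) without the filter and -1.56 (adjusted p = 0.092) with it. By library size alone miR-486a-5p in CMs changed sign, to 0.10, 0.41, 0.63 and 0.56 from D3 to D28, and its change in CMs minus that in the other 3 cell types became 1.45, 1.15 and 1.33 from D7 to D28. The cause was not tested. By limma, 7 changes of the ratio of miR-486a-5p to miR-451a, 2 of miR-144-3p to miR-451a and 12 of the ratios between cell types at D0 were called, where the exact test allowed 0. Leaving out 1 library at a time, calls numbered 12 to 17 (CMs), 1 to 2 (ECs), 2 to 9 (FBs), 5 to 8 (HCs), 10 to 13 over all days and 17 to 18 between cell types at D0, and limma called 7 to 8, 2 to 3 and 0 to 3 changes of the 3 ratios and between 9 and 13 (11 in several) of the differences of ratios between cell types at D0. DESeq2 gave 17, 2, 5 and 5 calls in CMs, ECs, FBs and HCs, with 1 lost and 1 gained in FBs, and fits of only the 2 days compared gave 14, 3, 5 and 7. Depth limits miR-144 in CMs at D0 and every member in the shallow HC library.

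Replicate numbers were not taken to pair the samples. No source used here says that they mark the animals shared by cell types, all 4 correlations of same-numbered libraries exceeded 0.1 in 1 of 36 pairs of cell types of a day (CMs and HCs at D1), and in 0 of 20 pairs of a day with D0 did they (range -0.50 to 0.33). With a replicate block, 28 of 80 differences of changes were called (3 gained, 1 lost, miR-486a-5p in CMs at D14), calls against D0 were 17, 2, 4 and 7 in CMs, ECs, FBs and HCs, and limma called 7, 2 and 0 changes of the 3 ratios and 12 differences at D0.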
